A study of Mus musculus with 10 samples.

Results

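R848 and polyU are both ligands of Toll-like receptor 7 (TLR7) and are called agonists below. The RNA of mouse bone marrow-derived macrophages (BMDMs) treated with R848 was compared here with that of BMDMs treated with polyU and no added guanosine. The comparison used 4 of the 10 RNA-seq libraries of the series, chosen by their labels: 2 replicates treated with R848 and 2 treated with polyU. The 2 vehicle libraries gave the level to which both treatments were set. BMDMs came from female C57BL/6 mice of WT genotype and were maintained in M-CSF, and every treatment lasted 4 hours. R848 was given at 1 ng/mL, and polyU was given as 5 µg of ssRNA complexed with the cationic lipid DOTAP. The age of the mice and whether the vehicle held DOTAP are not given in the sources used here, so polyU and its carrier cannot be told apart. Each agonist was given at 1 dose and the doses are in different units, so every difference below is between these 2 treatments and not between equal amounts of ligand. The other 4 libraries received 1 µM of the purine nucleoside phosphorylase inhibitor ulodesine (PNPi) with 5 µM deoxyguanosine and 5 µM guanosine, with or without polyU, and entered the filter on low values, the estimate of the spread and the check of cell type markers. The replicates are labelled as biological, but nothing in the labels says that they came from separate mice, so p-values measure the spread between these libraries, which may in part be technical.

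TLR7 is an endolysosomal receptor for single-stranded RNA with 2 ligand sites. Guanosine and imidazoquinolines such as R848 (resiquimod) occupy the first site, and uridine-containing ssRNA such as polyU occupies the second. The paper states that R848 binds without ssRNA, while activation by ssRNA also requires a guanine nucleoside at the first site. No guanosine was added to the polyU libraries compared here. In macrophages the receptor signals through MyD88 and IRAK kinases to NF-κB and AP-1, which drive inflammatory cytokine genes, and to IFN regulatory factors, which drive type I IFN. IFN in turn induces IFN-stimulated genes (ISGs) through the IFN receptor on the cell surface.

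The libraries held 17598254 and 17208175 reads on genes for polyU, 18831299 and 32659501 for R848, and 17820950 and 17798370 for vehicle, so 3 reads, taken as the limit of detection, were worth 0.0919 to 0.174 CPM, the unit of reads relative to the total of a library. Intervals and limits of this kind cover counting error only. Folds given below as at least are set against 3 reads per library. The macrophage label was met in all 6 libraries: the summed level of 9 macrophage markers, among them Csf1r, Adgre1, Cd68 and Lyz2, was 13859 and 14194 CPM with R848, 17470 and 16823 CPM with polyU, and 17467 and 17972 CPM with vehicle.

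The R848 libraries also held transcripts of fibroblast markers. Col1a1, which encodes a fibrillar collagen chain of fibroblasts, had 972 and 1905 reads with R848, 3 and 1 reads with polyU, and 2 and 7 reads with vehicle. Summed fibroblast markers came to 156 and 167 CPM with R848, 1.36 and 1.39 CPM with polyU, 0.673 and 1.35 CPM with vehicle, and 1.25 to 6.19 CPM in the other 4 libraries. By the rule given below, 6 of the 8 fibroblast markers tested were higher with R848 than with polyU, as were 7.55% of all genes tested. Col1a2 did not pass that rule (limma adjusted p = 0.0718), though it had 770 and 1313 reads with R848 against 1 and 4 with polyU. Within the list, Lum had 0 and 2 reads with R848, and Dcn and Pdgfra reached no more than 2.28 CPM. Which cells made the fibroblast marker transcripts was not tested. Both R848 libraries held them, so no comparison without them could be made, and their part in the results below was not tested. Other markers moved less: summed neutrophil markers were 22.99 and 25.2 CPM with R848, nearly all from S100a8, against 6.93 and 4.53 CPM with polyU. S100a8 made 2.22 and 2.21 CPM of these polyU sums. Ly6g and Elane had 3 reads or fewer in each library. S100a8 and Camp were higher with R848, while S100a9 (1 and 0 reads with R848 against 47 and 19 with polyU) and Ngp (0 reads against 23 and 11) were lower. Summed endothelial markers, nearly all from Kdr and Vwf with Tek at 0, were 64.5 and 69.8 CPM with R848 against 221 and 245 CPM with polyU. Summed mast cell and basophil markers, nearly all from Kit, were 0.637 and 1.10 CPM against 7.50 and 11.5 CPM. Summed markers of plasmacytoid dendritic cells lay between 87.6 and 98.2 CPM in these 4 libraries, nearly all from Tcf4 with Siglech at 3 reads or fewer, and those of conventional dendritic cells, nearly all from Itgax, were 78.4 and 82.9 CPM with R848 and 55.2 and 50.6 CPM with polyU. B cell, T and NK cell, erythroid and epithelial markers each summed to no more than 6.14 CPM in the vehicle, polyU and R848 libraries.

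**Figure D1:**
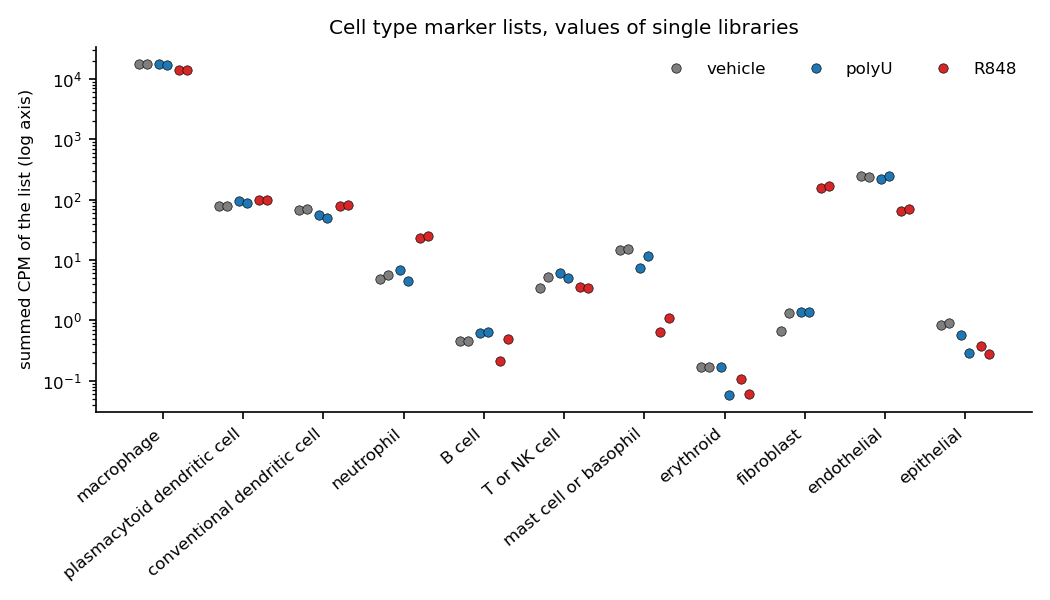
Summed level of marker genes of each cell type (CPM, log axis) in each of the 2 vehicle, 2 polyU and 2 R848 libraries, 1 point per library. Fibroblast markers sit at 156 and 167 CPM in the R848 libraries and at or below 1.39 CPM in the polyU and vehicle libraries, while macrophage markers lie between 13859 and 17972 CPM in all 6.

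More genes were lower than higher with R848. A call required at least a 2-fold difference and an adjusted p under 0.05 (limma on log2 CPM, Benjamini-Hochberg over all genes tested). By this rule 4687 genes differed between R848 and polyU, 39.1% of those tested: 904 were higher with R848 (7.55%) and 3783 were lower (31.6%), and 10023 genes passed an unadjusted p of 0.05. The median log2 difference over all genes, R848 minus polyU, was -0.56, with quartiles of -1.24 and 0.01. The genes called higher took 24.2% and 24.6% of the reads of the R848 libraries, 5.31% and 5.30% of those of polyU and 4.57% and 4.53% of those of vehicle. CPM are shares of a library, so the other genes divided a smaller share with R848. How far the lower calls go with this was not tested. When the log2 values of a library were set relative to their own median (libraries centred), which moved the median difference from -0.56 to 0.07, 3722 genes were called (31.1%), 1778 higher (14.8%) and 1944 lower (16.2%). Centring adds 0.64 to every log2 difference between R848 and polyU, so values between -0.64 and 0 change sign on that scale, and the calls between the agonists on that scale are given below for each gene list in which their counts differ. The counts of every list are to be set against these shares of all genes: 7.55% higher and 31.6% lower as deposited, 14.8% and 16.2% with libraries centred. In RNA from whole cultures, fewer cells that express a gene and less RNA of it per cell cannot be told apart.

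**Figure D2:**
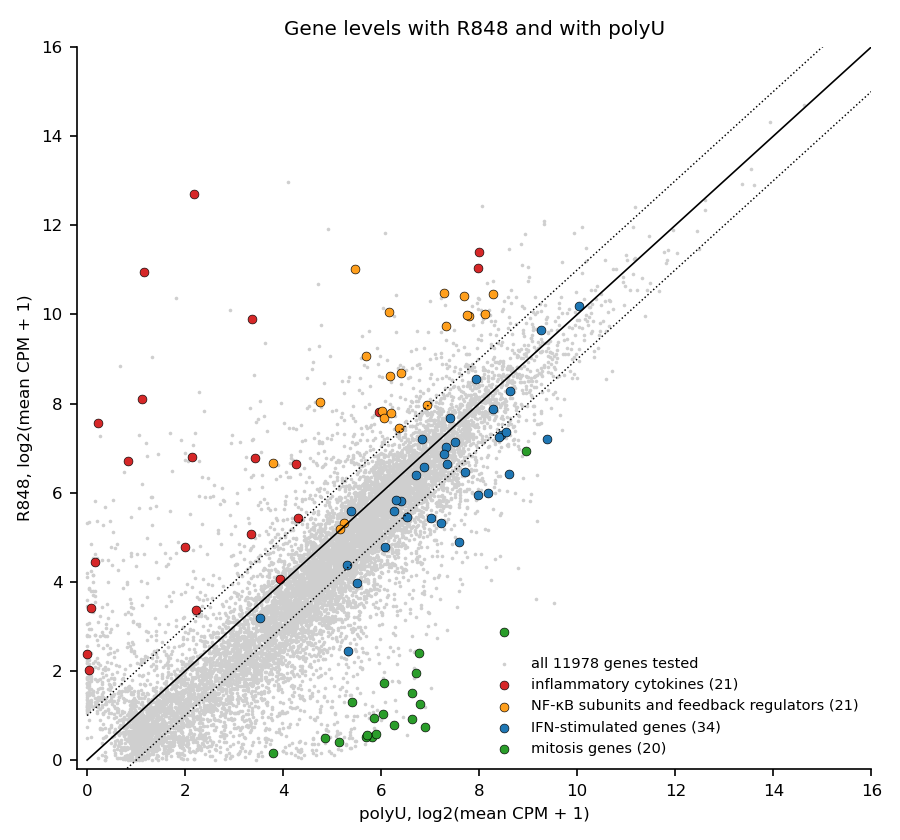
Mean level of each of the 11978 genes tested with polyU (x axis) and with R848 (y axis), both as log2(mean CPM + 1), with equal levels as a solid line, 2-fold differences as dotted lines and 4 gene lists coloured. Cytokine genes lie on or above the solid line and up to the top left, the 20 mitosis genes lie below the lower dotted line, and the bulk of the genes sits below the solid line, as the median difference of -0.56 says.

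Set beside vehicle, the larger move was that of R848. R848 changed 4698 genes against vehicle (39.2%), 1065 of them higher (8.89%) and 3633 lower (30.3%), and polyU changed 478 (3.99%), 385 higher (3.21%) and 93 lower (0.776%). With libraries centred 32.6% of genes were called between R848 and vehicle (15.0% higher, 17.6% lower) and 3.97% between polyU and vehicle (3.03% higher, 0.935% lower). Both comparisons share the vehicle libraries. Of the 904 genes higher with R848 than with polyU, 556 had a mean vehicle level below both treatments, 343 had it between them and 5 above both. R848 lay farther from vehicle than polyU did in 859 of the 904 genes (95.0%), with a median log2 difference from vehicle of 2.43 for R848 and 0.16 for polyU. Of the 3783 genes lower with R848, the vehicle level was above both treatments in 1890, between them in 1853 and below both in 40. In 3616 of these 3783 genes (95.6%) R848 again lay farther from vehicle, with medians of -1.72 for R848 and 0.00 for polyU. Among genes called with libraries centred, R848 lay farther from vehicle in 85.8% of the 1778 higher and 97.5% of the 1944 lower. Those distances were also taken on the deposited scale. On that scale the differences between the agonists were thus mostly differences between R848 and vehicle, in both directions.

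Inflammatory cytokine genes stood highest with R848. Of 21 cytokine genes tested, 20 were higher with R848 than with polyU and none was lower, also with libraries centred. Their median log2 difference was 5.03, or 4.15 with the 5 genes near 0 reads under polyU set to their fold over 3 reads per library, against -0.56 over all genes. Il1b, which encodes the inflammasome-processed cytokine IL-1β (GRCm38 chromosome 2, 129364570 to 129371139, minus strand), had 2.13 and 1.97 CPM with vehicle, 3.81 and 3.31 CPM with polyU, and 6558 and 6751 CPM with R848. Every R848 library was far above every polyU library, and the log2 difference of 10.87 (SE 0.084, limma adjusted p = 3.46e-20) had the smallest adjusted p among the genes described here. Il1a, its close relative, had 1.70 and 0.755 CPM with polyU and 2020 and 1954 CPM with R848 (log2 difference 10.77), and vehicle stood at 1.01 CPM in both libraries. Both IL-1 genes had polyU levels within a few CPM of vehicle.

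Tnf, an early NF-κB target (chromosome 17, 35199381 to 35202007), was raised by both agonists. It had 53.2 and 56.4 CPM with vehicle, 245 and 259 CPM with polyU and 2167 and 2064 CPM with R848, a log2 difference of 3.07 between the agonists (SE 0.073, limma adjusted p = 2.04e-12). Il10, the anti-inflammatory cytokine, followed the same order with 2.02 and 1.97, then 8.92 and 10.5, then 109 and 110 CPM (log2 difference 3.50, limma adjusted p = 1.05e-13). Il12b, the subunit shared by IL-12 and IL-23, went from 1.29 and 1.40 CPM with vehicle to 8.07 and 10.5 CPM with polyU and 956 and 954 CPM with R848, a log2 difference of 6.70. These 3 genes ranked vehicle, polyU, R848 with no overlap between the groups.

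Il6 (chromosome 5, 30013114 to 30019981) was nearly absent without R848. It had 1 and 0 reads with vehicle, 19 and 22 reads (1.08 and 1.28 CPM) with polyU, and 279 and 265 CPM with R848. The R848 libraries lay far above the polyU libraries, at a log2 difference of 7.85, but the SE was 2.88 on the log scale with its small offset, and the adjusted p was 0.048 in limma. The call was lost without any 1 of the 4 libraries (adjusted p = 0.129 to 0.137), and it had an adjusted p of 1.75e-19 with a pseudocount of 1 CPM. Csf3, which encodes the granulocyte growth factor G-CSF, behaved alike in the test. It had 3 reads in each polyU library and 189 and 188 CPM with R848, an observed ratio of 1092 that rests on those few reads. Its adjusted p was 0.0329 in limma, and the call was lost without any 1 of the 4 libraries. Il12a, Il23a, Csf2 and Lif also had 3 reads or fewer in each polyU library, and they were at least 17.8-fold, 56.2-fold, 24.4-fold and 121-fold higher with R848. The calls of Il12a, Il23a and Csf2 were lost without 3, 4 and 2 of these libraries taken 1 at a time, and that of Lif was not.

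Il15 was the exception in the list. It had 6.28 and 5.51 CPM with vehicle, 13.9 and 14.5 CPM with polyU and 15.7 CPM in both R848 libraries, and the difference between agonists of 0.15 was not called (limma adjusted p = 0.221). Both agonists raised it against vehicle, by 1.42 on the log2 scale with R848 and by 1.27 with polyU. The remaining cytokine genes were higher with R848 by 1.19 (Csf1, the M-CSF gene) to 7.10 (Inhba, which encodes an activin subunit). All 21 were higher with R848 than with vehicle, at a median of 7.24, and 7 of the 21 were higher with polyU than with vehicle, at a median of 1.27. Of all genes tested R848 raised 8.89% and polyU 3.21% against vehicle.

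More chemokine genes were higher with R848 than lower. Of 18 tested, 9 were higher with R848 than with polyU and 2 were lower (7.55% and 31.6% of all genes tested were), with a median log2 difference of 1.32. With libraries centred 11 were higher and 1 was lower (14.8% and 16.2% of all genes tested were). The 4 CXCR2 ligands for neutrophils, Cxcl1, Cxcl2, Cxcl3 and Cxcl5, were all among those higher, though the call of Cxcl5, with 1 and 0 reads under polyU, was lost without either R848 library or without polyU replicate 2. Cxcl3 (chromosome 5, 90786103 to 90789600) had 1.29 and 1.01 CPM with vehicle, 2.27 and 2.79 CPM with polyU and 1358 and 1298 CPM with R848, a log2 difference of 9.04 (SE 0.130, limma adjusted p = 2e-17). Cxcl2 had 29.2 CPM in both polyU libraries and 4002 and 3690 CPM with R848, and Cxcl1 had 7.22 and 5.81 CPM with polyU and 1118 and 1063 CPM with R848 (log2 differences 7.04 and 7.40). The macrophage inflammatory proteins were also higher: Ccl3 had 244 and 285 CPM with polyU and 5406 and 5639 CPM with R848 (log2 difference 4.39), above 111 and 106 CPM with vehicle.

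Of the 3 CXCR3 ligands, which are IFN-inducible, Cxcl10 and Cxcl11 were lower with R848 as deposited. Cxcl10 had 11.0 and 6.91 CPM with vehicle, 199 and 219 CPM with polyU and 91.4 and 93.1 CPM with R848. Both R848 libraries lay below both polyU libraries and above vehicle, at a log2 difference of -1.18 between agonists (limma adjusted p = 0.00729), which was not called with libraries centred (-0.54, adjusted p = 0.116). Cxcl11 was lower on both scales, with 1.93 and 1.98 CPM under polyU against 0.266 and 0.490 CPM under R848 (log2 difference -2.44, limma adjusted p = 0.00386). Cxcl9, the remaining CXCR3 ligand, had 0.966 and 0.697 CPM with polyU and 1.01 and 1.71 CPM with R848, and its difference of 0.68 was called higher only with libraries centred (1.32). Ccl2 and Ccl7, monocyte attractants, were not called either: Ccl2 had 385 and 360 CPM with polyU and 246 and 255 CPM with R848, with 374 and 334 CPM in vehicle, and its difference of -0.57 became 0.06 with libraries centred.

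NF-κB subunits and their feedback regulators rose together. Of 21 tested, 19 were higher with R848 than with polyU, none was lower, and the median log2 difference was 2.24, with the same counts with libraries centred. In group means all 21 ranked R848, polyU, vehicle from highest to lowest, and in 20 of the 21 both R848 libraries lay above both polyU libraries, a separation seen in that direction in 21.7% of all genes tested. Nfkbiz, which encodes the nuclear IκBζ that acts at secondary response genes, had 13.1 CPM in both vehicle libraries, 67.9 and 72.1 CPM with polyU and 1051 and 1060 CPM with R848 (log2 difference 3.91, SE 0.078). Tnfaip3, encoding the deubiquitinase A20, had 149 and 162 CPM with polyU and 1411 and 1454 CPM with R848 (log2 difference 3.21), against 107 and 116 CPM with vehicle. Socs3, the inhibitor of gp130 cytokine receptors, showed the largest difference of the list, with 42.3 and 44.4 CPM under polyU and 2023 and 2152 CPM under R848 (log2 difference 5.59, limma adjusted p = 2.36e-06). Only Nfkbid (0.09) and Tnip2 (0.02) were not called.

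More AP-1, EGR and DUSP genes were higher with R848 than lower. Of 21 tested, 12 were higher with R848, 5 were lower (Fos, Jun, Atf3, Dusp4 and Dusp10) and the median log2 difference was 1.76, or 1.35 with Egr3 set to its bound. Of all genes tested 7.55% were higher and 31.6% lower. With libraries centred 14 were higher and 2 lower (Atf3 and Dusp10), against 14.8% and 16.2% of all genes tested. Dusp16, a phosphatase of JNK, had 22.4 and 21.9 CPM with polyU and 595 and 607 CPM with R848 (log2 difference 4.76), close to vehicle under polyU at 25.6 CPM in both vehicle libraries. Dusp2 (4.38) and Ier3 (4.26) followed. Fos had 225 and 212 CPM with polyU, 73.7 and 78.3 CPM with R848 and 193 and 192 CPM with vehicle, and Jun had 267 and 274 CPM with polyU, 94.8 and 98.3 CPM with R848 and 295 and 316 CPM with vehicle. The lower calls of Fos (-1.52), Jun (-1.49) and Dusp4 (-1.39) were lost with libraries centred.

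**Figure D3:**
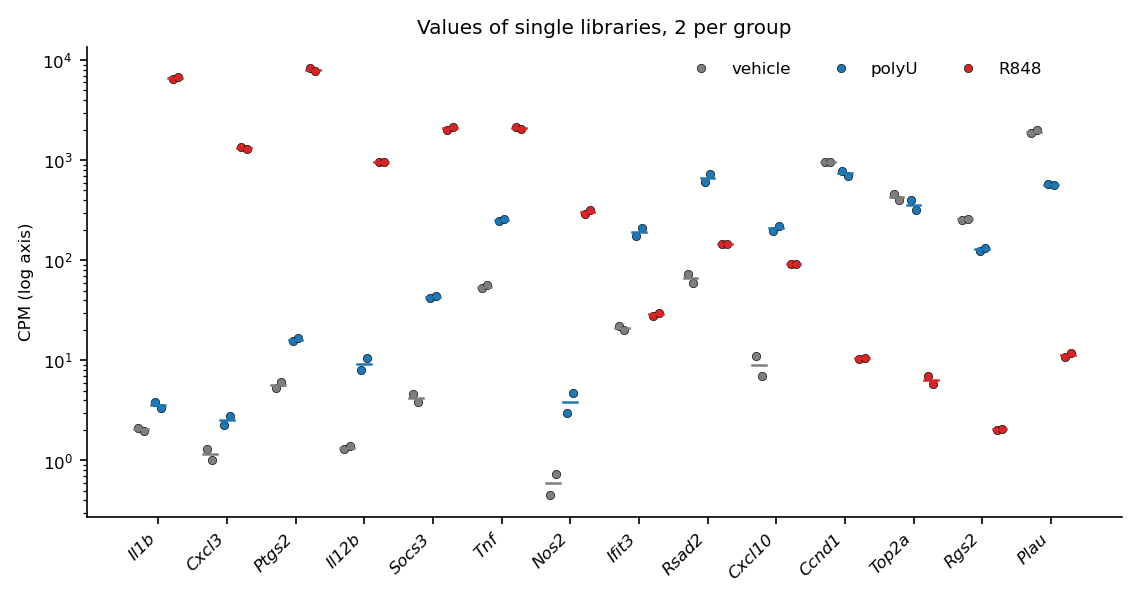
CPM (log axis) of 14 genes in each of the 2 vehicle, 2 polyU and 2 R848 libraries, 1 point per library with short lines at the group means. The R848 points of Il1b, Cxcl3 and Ptgs2 lie above 1000 CPM with polyU and vehicle below 20 CPM, Tnf rises in steps from vehicle to polyU to R848, Ifit3 and Rsad2 peak with polyU, and Ccnd1 and Plau lie below 12 CPM with R848 alone.

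Promoters are shown for 2 genes higher with R848 and 2 ISGs higher with polyU. They were picked from the gene lists because their promoters hold the motif letters, and members without a match were passed over. The matches shown are therefore no result about these genes. Each sequence runs from 250 bases before the start site to the base before it, in RefSeq on GRCm38.p6, on the strand of the gene. Capitals mark matches, on either strand, to GGGA followed after any 4 bases by CC (a κB-like motif, bound by NF-κB) in Cxcl3 (chr5:90785851-90786100, plus strand) and Il6 (chr5:30012864-30013113, plus strand), where 2 overlapping matches make 1 run, and to GAAA followed after any 2 bases by GAAA (an ISRE-like motif, bound by IRF and STAT complexes) in Ifit3 (chr19:34583279-34583528, plus strand) and Rsad2 (chr12:26456453-26456702, minus strand).
Cxcl3: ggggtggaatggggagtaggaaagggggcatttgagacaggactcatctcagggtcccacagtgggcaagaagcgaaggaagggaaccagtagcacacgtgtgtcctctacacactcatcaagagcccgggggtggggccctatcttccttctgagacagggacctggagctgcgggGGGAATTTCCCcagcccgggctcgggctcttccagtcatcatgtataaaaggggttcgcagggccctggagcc
Il6: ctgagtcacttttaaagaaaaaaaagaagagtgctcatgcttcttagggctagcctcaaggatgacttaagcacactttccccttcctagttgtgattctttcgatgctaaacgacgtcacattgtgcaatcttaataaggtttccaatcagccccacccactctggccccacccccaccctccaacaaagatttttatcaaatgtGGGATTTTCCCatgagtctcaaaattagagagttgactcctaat
Ifit3: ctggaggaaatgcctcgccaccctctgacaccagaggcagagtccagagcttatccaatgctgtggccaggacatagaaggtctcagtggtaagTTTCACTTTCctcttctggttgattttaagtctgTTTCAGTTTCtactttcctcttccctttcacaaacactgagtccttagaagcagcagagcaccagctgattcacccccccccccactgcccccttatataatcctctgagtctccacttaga
Rsad2: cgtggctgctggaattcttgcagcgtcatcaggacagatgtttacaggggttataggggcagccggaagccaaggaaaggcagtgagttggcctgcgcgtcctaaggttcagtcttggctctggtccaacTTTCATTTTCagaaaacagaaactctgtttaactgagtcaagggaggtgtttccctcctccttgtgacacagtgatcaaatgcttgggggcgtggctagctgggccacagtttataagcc
A match is a description of the letters and not a measured site. Windows of 250 bases before to 50 after the start were searched for the 9218 of 11977 tested symbols that matched the RefSeq table. The κB-like letters were in 26.4% of the windows of tested genes and in 31.8% of those of genes higher with R848 than with polyU. Among genes lower they were in 934 of the 3730 windows. They were in 8 of 17 windows of the cytokine list (47.1%), 6 of 12 of the chemokine list (50.0%) and 14 of 23 of the NF-κB list (60.9%). Lists wholly lower with R848 held them too, in 7 of 17 windows for mitosis (41.2%) and 6 of 19 for DNA replication (31.6%). The ISRE-like letters were in 3.37% of the windows of tested genes, in 5.28% and 3.67% of those of genes higher and lower with R848 than with polyU, in 17.1% of those of genes higher with polyU than with vehicle, in 7.69% of those of genes higher with R848 than with vehicle, and in 11 of 32 windows of the ISG list (34.4%). Over all 32851 promoters in the table the shares were 20.7% and 3.44%. No test was made on these shares.

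Part of the ISGs were lower with R848 than with polyU on both scales. Of 34 ISGs tested, none was higher with R848 than with polyU, 15 were lower (31.6% of all genes tested were lower) and the median log2 difference was -0.70, close to the -0.56 of all genes. With libraries centred the counts were 3 higher (Usp18, Parp14 and Samd9l) and 7 lower (Ifit2, Ifit3, Ifit3b, Mx1, Rsad2, Cmpk2 and Tor3a), with a median of -0.06. On that scale 14.8% of all genes tested were higher and 16.2% lower. The direction of the list as a whole thus depends on the scaling and that of the 7 does not. Both R848 libraries lay below both polyU libraries in 28 of the 34, a separation that 70.1% of all genes tested also showed. In group means 23 of the 34 ranked polyU, R848, vehicle from highest to lowest, 6 ranked R848, polyU, vehicle, and 5 had R848 below vehicle.

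Ifit3, which encodes an RNA-binding antiviral protein (chromosome 19, 34583531 to 34588731), had 22.2 and 20.2 CPM with vehicle, 174 and 211 CPM with polyU and 27.7 and 30.0 CPM with R848. The polyU libraries stood far above the others. R848 differed from vehicle by 0.44 on the log2 scale, which was not called, and by 1.04 with libraries centred, which was called higher, and the log2 difference between agonists was -2.73 (SE 0.089, limma adjusted p = 1.43e-12). Its near-identical neighbour Ifit3b had 34.2 and 44.1 CPM with polyU and 3.98 and 4.90 CPM with R848 (log2 difference -3.14), against 5.16 and 3.60 CPM with vehicle. How reads were divided between these copies is uncertain.

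Rsad2, encoding the antiviral enzyme viperin (chromosome 12, 26442746 to 26456452), kept a rise under both agonists, with 72.7 and 59.6 CPM under vehicle, 603 and 737 CPM under polyU and 145 and 146 CPM under R848, a log2 difference of -2.19 between agonists (limma adjusted p = 1.64e-05). Mx1, a dynamin-like GTPase, had 136 and 159 CPM with polyU and 35.9 and 42.0 CPM with R848 (log2 difference -1.92), with 11.4 and 9.38 CPM in vehicle. Tor3a was lowest with R848, at 56.2 and 65.5 CPM against 246 and 258 CPM with polyU and 100 and 103 CPM with vehicle (log2 difference -2.05).

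Not every ISG differed. Isg15, the ubiquitin-like modifier, had 93.1 and 113 CPM with polyU and 77.6 and 90.3 CPM with R848, a log2 difference of -0.29 that was not called and became 0.34 with libraries centred, and both agonists raised it from the 19.4 and 16.4 CPM of vehicle. Parp14 had 589 and 629 CPM with polyU and 758 and 849 CPM with R848, and its difference of 0.40 was called higher only with libraries centred (1.04). Against vehicle, R848 raised 13 of the 34 ISGs and polyU raised 23, with medians of 0.71 and 1.63. Of all genes tested R848 raised 8.89% and polyU 3.21%. With libraries centred R848 raised 24 of the 34 and polyU 22, with medians of 1.31 and 1.59. The shares of all genes raised were then 15.0% and 3.03%.

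IFN ligand transcripts were near the limit of detection. Ifnb1 had 1 and 0 reads with vehicle, 8 and 3 reads with polyU and 0 and 3 reads with R848, and the difference was not called (limma adjusted p = 0.134). It was called lower with R848 when a pseudocount of 0.1 CPM replaced the offset and when R848 replicate 2, which held the 3 reads, was left out, so these read counts do not settle it. The IFN-α genes listed had no more than 1 read in any of these 6 libraries. Of the receptor genes, Ifnar1 (0.47), Ifnar2 (0.98) and Ifngr2 (0.64) were not called, and all 3 were called higher with libraries centred, while Ifngr1 (-0.32, or 0.32 with libraries centred) was called on neither scale.

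**Figure D4:**
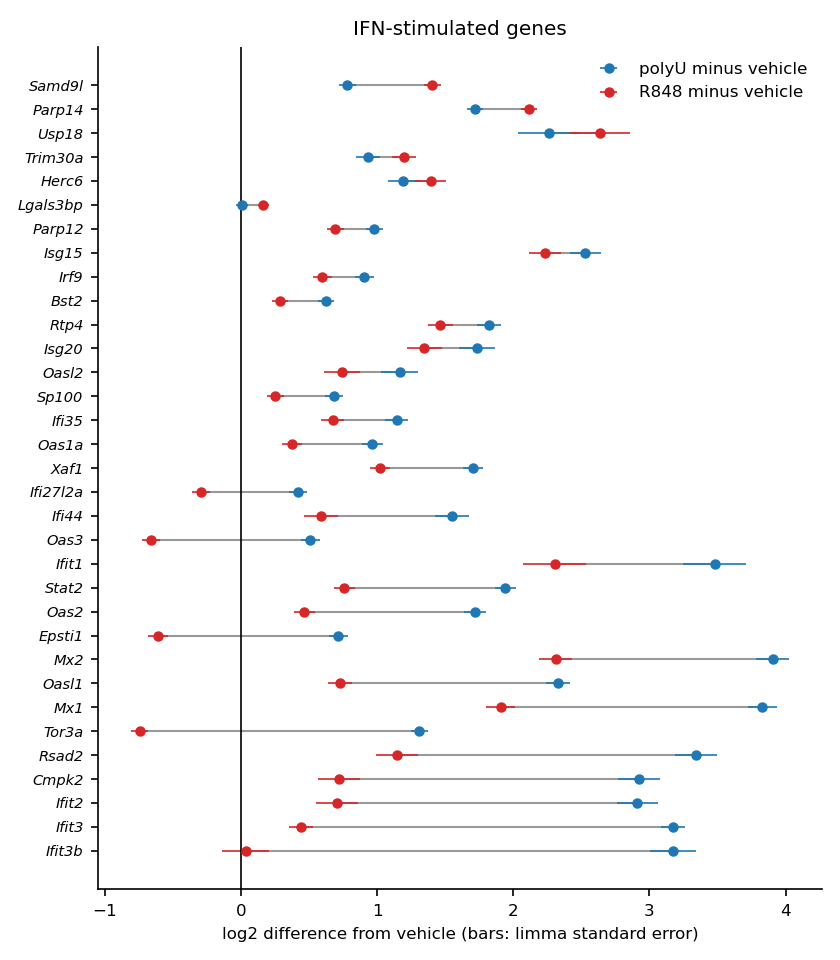
Log2 difference from vehicle of 33 of the 34 ISGs tested, for polyU and for R848, with limma SE as bars and a line joining the points of a gene; both treatments share the vehicle libraries. The polyU point lies to the right of the R848 point in 27 genes and to the left in 6, and 4 R848 points lie below 0.

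TLR7 itself differed little. Tlr7 had 166 and 142 CPM with vehicle, 148 and 142 CPM with polyU and 205 and 214 CPM with R848. Both R848 libraries were above the others, and the log2 difference of 0.53 (limma adjusted p = 7.14e-06) was under 2-fold as deposited and past it with libraries centred (1.17). Of 20 genes of TLR7 trafficking and proximal signalling tested, 5 were higher with R848 than with polyU (Slc15a3, Irak2, Irak3, Tab2 and Ikbkb), 3 were lower (Cnpy3, Slc15a4 and Irf5), and the median was 0.01. Of all genes tested 7.55% were higher and 31.6% lower. With libraries centred 8 were higher and Irf5 alone was lower (14.8% and 16.2% of all genes tested were). Ikbkb, at 1.02, was not called without R848 replicate 2 or without polyU replicate 1. Irak3, which encodes the inhibitory kinase IRAK-M, differed most, with 63.8 and 60.1 CPM under polyU, 535 and 541 CPM under R848 and 34.1 and 32.1 CPM under vehicle (log2 difference 3.12). Irf5, the factor that drives cytokine genes downstream of TLR7, had 300 and 329 CPM with polyU and 68.2 and 70.7 CPM with R848 (log2 difference -2.18, limma adjusted p = 1.51e-13), and vehicle was at 273 and 303 CPM. The lysosomal transporters parted: Slc15a3 had 542 and 583 CPM with polyU and 1335 and 1367 CPM with R848, and Slc15a4, which is needed for endosomal TLR signalling, had 81.5 and 88.3 CPM with polyU and 31.2 and 31.4 CPM with R848. The lower calls of Slc15a4 (-1.44) and Cnpy3 (-1.32) were lost with libraries centred.

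Genes that process RNA into TLR7 ligands or handle guanosine moved in both directions. Of 19 tested, 2 were higher (Rnaset2a and Gda), 9 were lower (7.55% and 31.6% of all genes tested were), and the median log2 difference was -0.97. With libraries centred the counts were 4 and 5. Pnp, the phosphorylase that breaks down guanosine, had 46.3 and 47.8 CPM with vehicle, 79.5 and 82.6 CPM with polyU and 124 and 136 CPM with R848, and its difference of 0.68 was called only with libraries centred (1.32). Slc29a3, encoding the lysosomal nucleoside exporter ENT3, had 71.9 and 76.0 CPM with polyU and 21.1 and 19.6 CPM with R848, against 86.1 and 85.6 CPM with vehicle (log2 difference -1.86). Gda, the guanine deaminase gene, rose from 47.2 and 40.5 CPM to 141 and 136 CPM (log2 difference 1.66) with polyU at the vehicle level of 46.9 and 40.2 CPM. Samhd1, encoding the dNTP hydrolase, had 382 and 409 CPM with polyU and 193 and 211 CPM with R848 and was just under 2-fold (-0.97), a limit it passed without R848 replicate 2 (-1.03) or without polyU replicate 1 (-1.02).

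Other nucleic acid sensors moved in both directions. Of 19 tested, Ifi205 was higher, 8 were lower (31.6% of all genes tested were lower) and the median was -0.64, near the -0.56 of all genes, and with libraries centred 6 were higher and 4 lower. Tlr9, the CpG DNA receptor, had 27.1 and 27.3 CPM with polyU and 3.88 and 3.70 CPM with R848 (log2 difference -2.84, limma adjusted p = 1.42e-12), and Tlr13, the receptor for bacterial rRNA, had 494 and 456 CPM with polyU and 80.0 and 77.8 CPM with R848 (log2 difference -2.59). Vehicle stood at 17.5 and 16.1 CPM for Tlr9 and at 650 and 658 CPM for Tlr13. The cytosolic DNA sensing genes Cgas (-2.07) and Tmem173, which encodes STING (-1.95), were lower on both scales. Ifi205 had 23.4 and 29.6 CPM with polyU and 232 and 248 CPM with R848 (log2 difference 3.19).

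IFN-inducible GTPases moved in both directions. Of 15 tested, 4 guanylate-binding protein genes (Gbp2, Gbp3, Gbp5 and Gbp7) were higher with R848 and Gbp8, Irgm1, Iigp1 and Tgtp2 were lower (7.55% and 31.6% of all genes tested were). The median was -0.34. With libraries centred 5 were higher and 3 lower. Gbp5 had 3.87 and 2.70 CPM with vehicle, 33.9 and 39.5 CPM with polyU and 294 and 310 CPM with R848 (log2 difference 3.05). Irgm1 had 89.0 and 77.9 CPM with vehicle, 250 and 262 CPM with polyU and 76.6 and 92.4 CPM with R848 (log2 difference -1.60), a call lost with libraries centred. Iigp1 (-1.81) and Tgtp2 (-1.83) were lower on both scales. Against vehicle, R848 raised 10 of the 15 and lowered 1, and polyU raised 13. Of all genes tested R848 raised 8.89% and lowered 30.3%, and polyU raised 3.21%.

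Antigen presentation genes differed by class. Of 19 MHC class I pathway genes tested, 17 were not called between the agonists, H2-Q7 was higher (1.83), Psmb9 was lower (-1.23, lost with libraries centred) and the median was 0.09. With libraries centred H2-Q7, Tap2 and Psme2 were higher and none was lower. H2-D1 had 2202 and 2409 CPM with polyU and 2398 and 2504 CPM with R848, a log2 difference of 0.09. Of 14 class II and costimulatory genes, 5 were higher, all of them costimulatory or regulatory surface molecules (Cd40, Cd80, Cd274, Icosl and Cd83). Another 5 were lower, all of the class II pathway (H2-Aa, H2-Eb1, Ciita, H2-DMa and H2-DMb1). Of all genes tested 7.55% were higher and 31.6% lower. Cd40 had 14.4 and 15.2 CPM with vehicle, 43.4 and 50.6 CPM with polyU and 499 and 538 CPM with R848 (log2 difference 3.47). H2-Aa had 107 and 114 CPM with vehicle, 135 and 150 CPM with polyU and 36.9 and 43.6 CPM with R848 (log2 difference -1.83). With libraries centred 2 of the class II genes, H2-Aa and H2-DMa, remained lower, and the same 5 costimulatory genes were higher.

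Inflammasome genes gave 2 higher calls (Nlrp3 and Casp4) and 6 lower calls among 14 tested (7.55% and 31.6% of all genes tested were). The median was -0.43, against -0.56 for all genes, and 2 of each were called with libraries centred. Nlrp3, the sensor whose priming precedes IL-1β release, had 89.7 and 88.1 CPM with vehicle, 133 and 122 CPM with polyU and 1231 and 1274 CPM with R848 (log2 difference 3.30, limma adjusted p = 5.14e-17). Nlrp1b, another inflammasome sensor, had 27.6 and 32.3 CPM with vehicle, 25.3 and 22.2 CPM with polyU and 0.903 and 0.888 CPM with R848 (log2 difference -4.73). Gsdme (-2.12) was lower on both scales, and Casp1 differed by 0.17 and was not called.

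**Figure D5:**
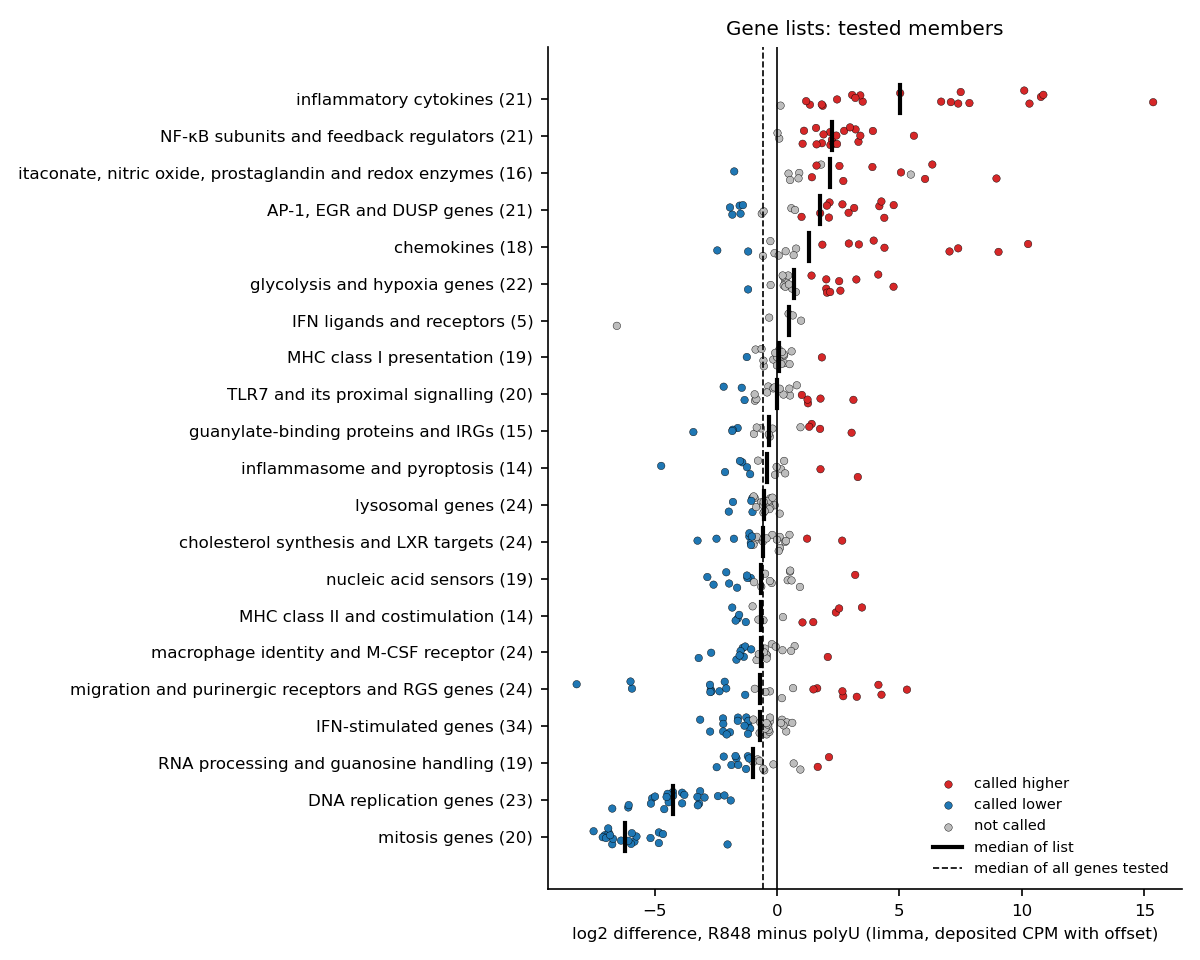
Log2 difference R848 minus polyU of each tested member of the gene lists, 1 point per gene coloured by its call, with the list median as a thick bar and the median of all genes tested (-0.56) as a dashed line. Cytokine and NF-κB genes lie mostly above 0, with medians of 5.03 and 2.24, and DNA replication and mitosis genes lie wholly below it, with medians of -4.24 and -6.22.

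Enzymes of inflammatory macrophage metabolism were mostly higher with R848. Of 16 genes for itaconate, nitric oxide, prostaglandin and redox enzymes, 9 were higher, Ptgs1 was lower (-1.75) and the median log2 difference was 2.17. Of all genes tested 7.55% were higher and 31.6% lower. With libraries centred 14 were higher and Ptgs1 remained lower. Ptgs2, encoding the inducible cyclooxygenase COX-2 (chromosome 1, 150100031 to 150108227), had 5.27 and 6.12 CPM with vehicle, 15.7 and 16.6 CPM with polyU and 8309 and 7791 CPM with R848 (log2 difference 8.96, SE 0.15, limma adjusted p = 1.24e-09). Ptges, the downstream prostaglandin E synthase, had 25.7 and 26.6 CPM with polyU and 857 and 891 CPM with R848 (log2 difference 5.06). Nos2, the inducible nitric oxide synthase, had 2.95 and 4.77 CPM with polyU and 288 and 321 CPM with R848 (6.34). Acod1, which makes itaconate, was already high with polyU, at 613 and 673 CPM against 62.3 and 62.1 CPM with vehicle, and reached 4112 and 4274 CPM with R848 (log2 difference 2.71). Slc7a11, the cystine transporter, showed no such step with polyU: it had 19.2 CPM in both vehicle libraries, 23.8 and 26.3 CPM with polyU and 1686 and 1614 CPM with R848 (log2 difference 6.04). Ptgs1 stood at 9.54 and 7.42 CPM with vehicle, 6.08 and 4.24 CPM with polyU and 1.59 and 1.44 CPM with R848.

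Of 22 glycolysis and hypoxia genes, 10 were higher with R848, Hk3 was lower (-1.18, lost with libraries centred) and the median was 0.69, while the median against vehicle was -0.03 for polyU. Of all genes tested 7.55% were higher and 31.6% lower with R848 than with polyU. With libraries centred 14 were higher, the added genes being Tpi1, Gapdh, Eno1 and Ldha. Pfkfb3, which makes the activator of phosphofructokinase, had 71.5 and 77.3 CPM with vehicle, 61.3 and 67.5 CPM with polyU and 1096 and 1163 CPM with R848 (log2 difference 4.13). The lactate exporter gene Slc16a3 (2.59), the glucose transporter gene Slc2a1 (2.54) and Hif1a (2.17) were also higher. Of the core pathway, Aldoa (0.26) and Pkm (-0.26, or 0.38 with libraries centred) were called on neither scale.

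Genes of macrophage identity had shares of calls near those of all genes. Of 24 tested, Cebpb was higher (2.07), 9 were lower (31.6% of all genes tested were lower) and the median was -0.66, near the -0.56 of all genes. With libraries centred 3 were higher and 3 lower (Mertk, Fcgr1 and Cx3cr1). Mertk, the receptor for apoptotic cells, had 40.3 and 40.6 CPM with vehicle, 34.4 and 36.7 CPM with polyU and 5.36 and 5.66 CPM with R848 (log2 difference -2.69), and Cx3cr1, the fractalkine receptor, had 45.2 and 28.1 CPM with polyU and 4.09 and 3.70 CPM with R848 (log2 difference -3.20). The M-CSF receptor gene Csf1r had 1987 and 1924 CPM with polyU and 1654 and 1727 CPM with R848, a difference of -0.21 that was not called and became 0.43 with libraries centred. The abundant lysozyme gene Lyz2 had 10871 and 10174 CPM with polyU and 7756 and 7810 CPM with R848 (log2 difference -0.43, or 0.20 with libraries centred) and was not called either.

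Receptors for migration and purines moved in both directions. Of 24 tested, 8 were higher and 11 lower (7.55% and 31.6% of all genes tested were), at a median of -0.69. With libraries centred 9 were higher and 10 lower. The formyl peptide receptor genes Fpr1 (4.26) and Fpr2 (4.14) and the adenosine receptor genes Adora2a (5.30) and Adora2b (3.26) were higher. Adora2a had 0.393 and 0.337 CPM with vehicle, 1.76 and 2.85 CPM with polyU and 87.7 and 89.4 CPM with R848. Cnr2, a cannabinoid receptor gene, and Gpr183, an oxysterol receptor gene, were among the most lowered: Gpr183 had 23.3 and 29.3 CPM with vehicle, 17.0 and 15.7 CPM with polyU and 0.266 and 0.276 CPM with R848 (log2 difference -5.92), and Cnr2 had 1 and 9 reads with R848 against 35.8 and 34.3 CPM with polyU. Rgs2, a brake on G protein signalling, had 252 and 261 CPM with vehicle, 125 and 133 CPM with polyU and 2.02 and 2.08 CPM with R848 (log2 difference -5.98, limma adjusted p = 2.58e-18).

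Cell cycle genes were lower with R848 throughout the lists. All 23 DNA replication genes and all 20 mitosis genes tested were lower with R848 than with polyU, on both scales, with median log2 differences of -4.24 and -6.22. None of the 43 was called between polyU and vehicle, where the medians were -0.19 and -0.07. Top2a, the topoisomerase of dividing cells, had 459 and 404 CPM with vehicle, 399 and 322 CPM with polyU and 6.96 and 5.79 CPM with R848 (log2 difference -5.82, limma adjusted p = 1.36e-08). Ccna2, encoding cyclin A2, had 131 and 106 CPM with polyU and 0.743 and 0.582 CPM with R848 (log2 difference -7.49), against 144 and 115 CPM with vehicle. Rrm2, the ribonucleotide reductase subunit of S phase, had 105 and 83.0 CPM with polyU and 0.850 and 0.919 CPM with R848 (log2 difference -6.72). The smallest differences in the lists were those of Pcna (-1.89) and Mki67 (-2.02), and Mki67 kept 123 and 121 CPM with R848 against 547 and 448 CPM with polyU. Ccnd1, encoding the cyclin D1 that M-CSF induces (chromosome 7, 144929931 to 144939925), had 960 and 954 CPM with vehicle, 784 and 695 CPM with polyU and 10.4 and 10.7 CPM with R848 (log2 difference -6.13).

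Beyond the lists, genes near 0 in 1 group marked the extremes. Among genes called higher, 76 had 3 reads or fewer in each polyU library, and among those called lower 104 had 3 reads or fewer in each R848 library. U90926 had 0 reads in both polyU libraries and 730 and 1262 reads with R848, at least 224-fold higher. The other most abundant genes of this kind after Csf3 were Col1a1, Bgn and Aebp1, at least 319-fold, 228-fold and 161-fold higher, which encode extracellular matrix proteins of fibroblasts, whose markers were high in both R848 libraries. Aebp1 was not called without polyU replicate 1 (adjusted p = 0.122). In the other direction BC030867, Ankle1, Pif1, Esco2 and Neurl1b had 3 reads or fewer in each R848 library. BC030867, Ankle1, Pif1 and Esco2 were at least 157-fold, 148-fold, 142-fold and 135-fold higher with polyU. Neurl1b, with 3 reads in each R848 library, had an observed ratio of 102. Ankle1, Pif1 and Esco2 act on DNA or chromatids in dividing cells.

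Among genes called lower, the largest differences of CPM were those of Lgals3 (galectin-3), Vim (vimentin), Adam8, Lipa and BC005537. Lgals3 had 5445 and 5986 CPM with polyU and 2748 and 2952 CPM with R848, at a log2 difference of -1.003 that was not called without R848 replicate 1 (-0.95) or without polyU replicate 2 (-0.93). Lgals3, Vim (-1.14) and Adam8 (-1.42) were lower as deposited and not called with libraries centred, and Lipa (-1.97) and BC005537 (-2.02) were lower on both scales. Plau, encoding urokinase (chromosome 14, 20836660 to 20843385), was lowered by both agonists, with 1885 and 1999 CPM under vehicle, 575 and 561 CPM under polyU and 10.7 and 11.9 CPM under R848 (log2 difference -5.65).

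A few genes were moved from vehicle in opposite directions by the agonists. Against vehicle 12 genes were higher with polyU and lower with R848, and 10 were higher with R848 and lower with polyU, or 3 and 17 with libraries centred. Gpr162, an orphan receptor gene, had 25.8 and 27.7 CPM with vehicle, 57.8 and 75.1 CPM with polyU and 1.59 and 1.35 CPM with R848 (log2 difference between agonists -5.49, limma adjusted p = 2.7e-14). P2ry14, the UDP-glucose receptor gene, had 6.51 and 5.84 CPM with vehicle, 13.7 and 14.3 CPM with polyU and 2.28 and 3.31 CPM with R848 (-2.35), and its lower call against vehicle was lost with libraries centred. Fosl2, an AP-1 subunit gene, had 66.8 and 71.1 CPM with vehicle, 34.9 and 25.2 CPM with polyU and 528 and 545 CPM with R848 (4.18, limma adjusted p = 5.91e-07), and Nr4a1, an orphan nuclear receptor gene, had 11.0 and 11.2, then 4.49 and 5.35, then 57.9 and 61.9 CPM (3.61). Grem1, a BMP antagonist gene of stromal cells, had 0 reads in both polyU libraries, 1 read in each vehicle library and 330 and 496 reads with R848, so its lower call with polyU against vehicle rests on single reads. In each of the other genes named here the 3 groups did not overlap.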

How the data were processed

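RNA-seq was made by the authors from poly(A)-selected RNA with a stranded kit and 50 bp single reads. Per the labels and methods, reads were demultiplexed with bcl2fastq 2.19.1.403, mapped with STAR 2.27a to GRCm38 and counted on Ensembl 97 genes, and the authors deposited CPM with 0.0001 added to every value for 55573 genes in 10 libraries. CPM keeps no gene length, so levels are compared between libraries and not between genes.

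Reads per gene were worked out from the step between low values, which were whole multiples of it within 0.05 reads in 100% of cases, and were used for depth and detection limits. The 11978 genes that reached 1 CPM in 2 or more of the 10 libraries were fitted as log2 of the deposited values with limma 3.58.1 in R 4.3.3 (all 5 groups, eBayes with trend and robust estimates by statmod 1.5.0), with Benjamini-Hochberg adjustment. The fit was tested on simulated data in which a small share of genes changed, up and down alike, and none near 0 reads. That simulation does not cover genes near 0 reads or the shift of the median seen here. Symbols and positions came from GENCODE M21 (55480 IDs matched), and promoter sequences from RefSeq, GRCm38.p6. Tables and plots used Python 3.11.15, numpy 2.4.6, pandas 2.3.3 and matplotlib 3.10.9.

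The members and gene lists were chosen with earlier results of these data known. Genes were named by rule: the 10 largest differences in each direction, the 5 most abundant with 3 reads or fewer in the other group, those moved in opposite directions from vehicle, the 5 largest differences of CPM, up to 4 called and 2 uncalled members of each list, and Il6, Tnf, Il10, Il1b, Cxcl10, Ifnb1, Tlr7 and Pnp. Some list members outside these, among them Acod1, Tnfaip3, Mx1, Rsad2, Isg15, Csf1r, Mki67 and Pcna, were chosen after their values were seen. Some genes that the rule names are not reported here.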

Additional observations from a re-analysis of the deposited data

How the results depend on the processing

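The 2 replicates per group limit the precision, and single reads set the values of genes near 0. Centring each library changed the balance of higher and lower calls: R848 against polyU gave 1778 genes higher and 1944 lower, and R848 against vehicle 1792 higher and 2107 lower. Centring with a pseudocount of 1 CPM, an alternative chosen after seeing the data, gave 2995 calls (1730 higher, 1265 lower) for R848 against polyU, 1706 higher and 1460 lower for R848 against vehicle, and 293 calls (230 higher) for polyU against vehicle. A pseudocount of 1 CPM alone gave 303 calls (249 higher, 54 lower) for polyU against vehicle. Leaving out 1 library gave 4557 to 4720 calls for R848 against polyU, 4575 to 4757 for R848 against vehicle and 420 to 521 for polyU against vehicle. Without a filter on low values the counts were 5719, 5775 and 596. Of 197 named genes, 22 lost their call and 10 gained one with libraries centred (30 and 8 with a pseudocount of 1 CPM as well). Under each of the other pseudocounts, filters and variance settings no more than 4 lost a call and no more than 1 gained one, among the 191 to 197 named genes that passed the filter. Genes whose small difference changed sign, with the centred value first and that with centring and a pseudocount of 1 CPM second, were Ccl7 (0.54, 0.51), Csf1r (0.43, 0.40), Ifngr1 (0.32, 0.30), Isg15 (0.34, 0.32), Ccl2 (0.065, 0.040), Ctsb (0.36, 0.34), Lyz2 (0.20, 0.18) and Pkm (0.38, 0.35). Ifnb1 changed sign only in the second (0.29), and Tnip2, which ran from -0.040 to 0.082 with 1 library left out, turned negative without polyU replicate 2. The calls of Il6 (adjusted p = 0.0906) and Csf3 (0.0619) were also lost without a filter. Replicate numbers did not pair the libraries: replicate deviations of polyU and R848 correlated at 0.05 over genes. With the replicate number as a block there were 4687 calls (904 higher, 3783 lower) for R848 against polyU, 4688 for R848 against vehicle and 478 for polyU against vehicle, and the calls of Il6 (adjusted p = 0.067) and Il23a were lost. Tests on recovered read counts were not run, and for a change of sign or call the cause was not tested.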

Other observations

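Lists of lipid and lysosomal genes had shares of calls near those of all genes tested, of which 7.55% were higher and 31.6% lower with R848 than with polyU, and single members differed. Of 24 genes of cholesterol synthesis and LXR targets tested, 2 were higher with R848 than with polyU (Abca1 and Apoe), 8 were lower and the median log2 difference was -0.56, equal to that of all genes, and 4 and 3 were called with libraries centred. Abca1, the cholesterol exporter gene, had 58.4 and 64.8 CPM with vehicle, 49.2 and 45.8 CPM with polyU and 294 and 306 CPM with R848 (log2 difference 2.66, limma adjusted p = 4.48e-15). Abcg1, the other LXR-induced exporter gene, went the opposite way, with 73.5 and 68.2 CPM under vehicle, 37.5 and 42.6 CPM under polyU and 6.69 and 7.78 CPM under R848 (log2 difference -2.47). Dhcr7, the last enzyme of cholesterol synthesis, had 29.3 and 30.3 CPM with polyU and 3.13 and 3.15 CPM with R848 (log2 difference -3.24).

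Of 24 lysosomal genes tested, none was higher, 5 were lower (Gusb, Lipa, Npc1, Tfeb and Neu1), of which Lipa and Tfeb stayed called with libraries centred, and the median log2 difference was -0.52. Lipa, the lysosomal acid lipase gene, had 1821 and 1832 CPM with vehicle, 1657 and 1679 CPM with polyU and 420 and 433 CPM with R848 (log2 difference -1.97, limma adjusted p = 2.61e-16). Tfeb, encoding a regulator of lysosomal genes, had 46.8 and 57.0 CPM with polyU and 13.4 and 16.4 CPM with R848 (log2 difference -1.80). The most abundant protease gene, Ctsb, had 11787 and 12073 CPM with polyU and 9598 and 10129 CPM with R848, a difference of -0.27 that was not called and became 0.36 with libraries centred.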
